A study of Mus musculus with 10 samples.

Results

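The genes described here are 32 genes of adipocyte lipid storage and endocrine function, named by symbol and read across skin libraries of WT mice and of mice whose genotype is written 5 Hamp1-KI ker (KI). All 32 were found among the 55487 genes of the deposited tables, and 31 of them were among the 17321 genes that passed the filter on low counts. They were sorted by role into lipid droplet and lipolysis genes (7), fatty acid synthesis genes (6), triglyceride synthesis genes (5), fatty acid and glucose uptake genes (5), adipokines (4), transcription factors (3), the carbonic anhydrase Car3 and the uncoupling protein Ucp1. Skin was taken from 5 WT and 5 KI mice, with 1 library per mouse, and the series concerns overexpression of hepcidin, the iron hormone encoded by Hamp, in skin. The labels explain neither the leading 5, which the design text places as a number of mice, nor "ker", and do not give the promoter, the age or the sex of the mice. Titles carry the prefix EAS37 (WT 1 to 3, KI 1 and 2) or EAS42 (WT 4 and 5, KI 3 to 5), whose meaning the labels do not give.

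Mouse skin holds a layer of white adipocytes below the dermis, which thickens and thins with the hair cycle. Each adipocyte keeps triglyceride in a single large droplet coated by perilipins. It builds triglyceride from fatty acids that it takes up or makes from glucose, and it releases them again through adipose triglyceride lipase and hormone-sensitive lipase when adrenergic receptors are stimulated. Fatty acid synthesis is not particular to adipocytes, since sebaceous glands and keratinocytes run the same pathway. Slc2a4, Car3, Lpl and Cd36 are also known as genes of skeletal muscle, a thin sheet of which lies under the fat of mouse skin.

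The pattern over all 10 libraries was a split by role in the members that fell. Most genes of the droplet and lipolysis, of fatty acid and glucose uptake and of hormone output fell in KI skin, and 3 members rose (Acaca, Acly and Cebpa). A gene is said to fall or rise where edgeR's quasi-likelihood test gave a Benjamini-Hochberg adjusted p under 0.05 over all genes tested. Of 11 genes of fatty acid and triglyceride synthesis 0 fell in edgeR's main fit. Only 1, Thrsp, was lower there at an unadjusted p under 0.05, and it was called lower by DESeq2 and by limma-voom. Its log2 fold change of -1.68 was the lowest of the 31 members tested. With the title prefix as a block edgeR called Thrsp (-2.34, adjusted p = 0.00701) and Gpd1 (-0.91, adjusted p = 0.0188) lower. Of the same 11 genes 2 rose (18.2%), near the 15.6% of all genes tested. Within EAS37 3 of the 11 were lower (27.3%, beside 18.4% of all genes), namely Thrsp, Gpd1 and Lpin1 (-1.15, edgeR adjusted p = 0.0331). Of the 31 members tested 13 fell (41.9%) and 3 rose (9.68%), beside 15.3% of all genes tested that fell and 15.6% that rose (30.9% in either direction). The median log2 fold change of the members, KI over WT, was -0.71, against -0.01 over all genes tested. Every KI library lay below every WT library for 10 members and above for 2, where 9.65% and 10.7% of all genes tested did so.

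In bulk skin, fewer adipocytes and less RNA of a gene per adipocyte cannot be told apart. Depth was 18.96 to 26.43 M expected counts per library, and Hamp was higher in KI by 5.47 ± 0.26 (log2, SE; edgeR adjusted p = 3.78e-06). Adipocyte RNA was present in every library, since Adipoq, Cfd and Fabp4 were each at 16.1 CPM (counts scaled to library size, with TMM factors) or more in all 10. Signal of other tissue layers moved with genotype too. Skeletal muscle genes (20 measured) summed to 31810 to 55840 CPM in WT and 3340 to 34410 CPM in KI. Sebaceous gland genes (16 measured) summed to 2463 to 4390 CPM in WT and 7144 to 9289 CPM in KI. Of the sebaceous sums Krt79 alone held 353 to 711 CPM in WT and 1967 to 5052 CPM in KI. The mean log2 CPM of the sebaceous list overlapped between the groups, at 6.19 to 7.09 in WT and 6.86 to 7.68 in KI. No marker of these lists was at 0 in all libraries.

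**Figure D1:**
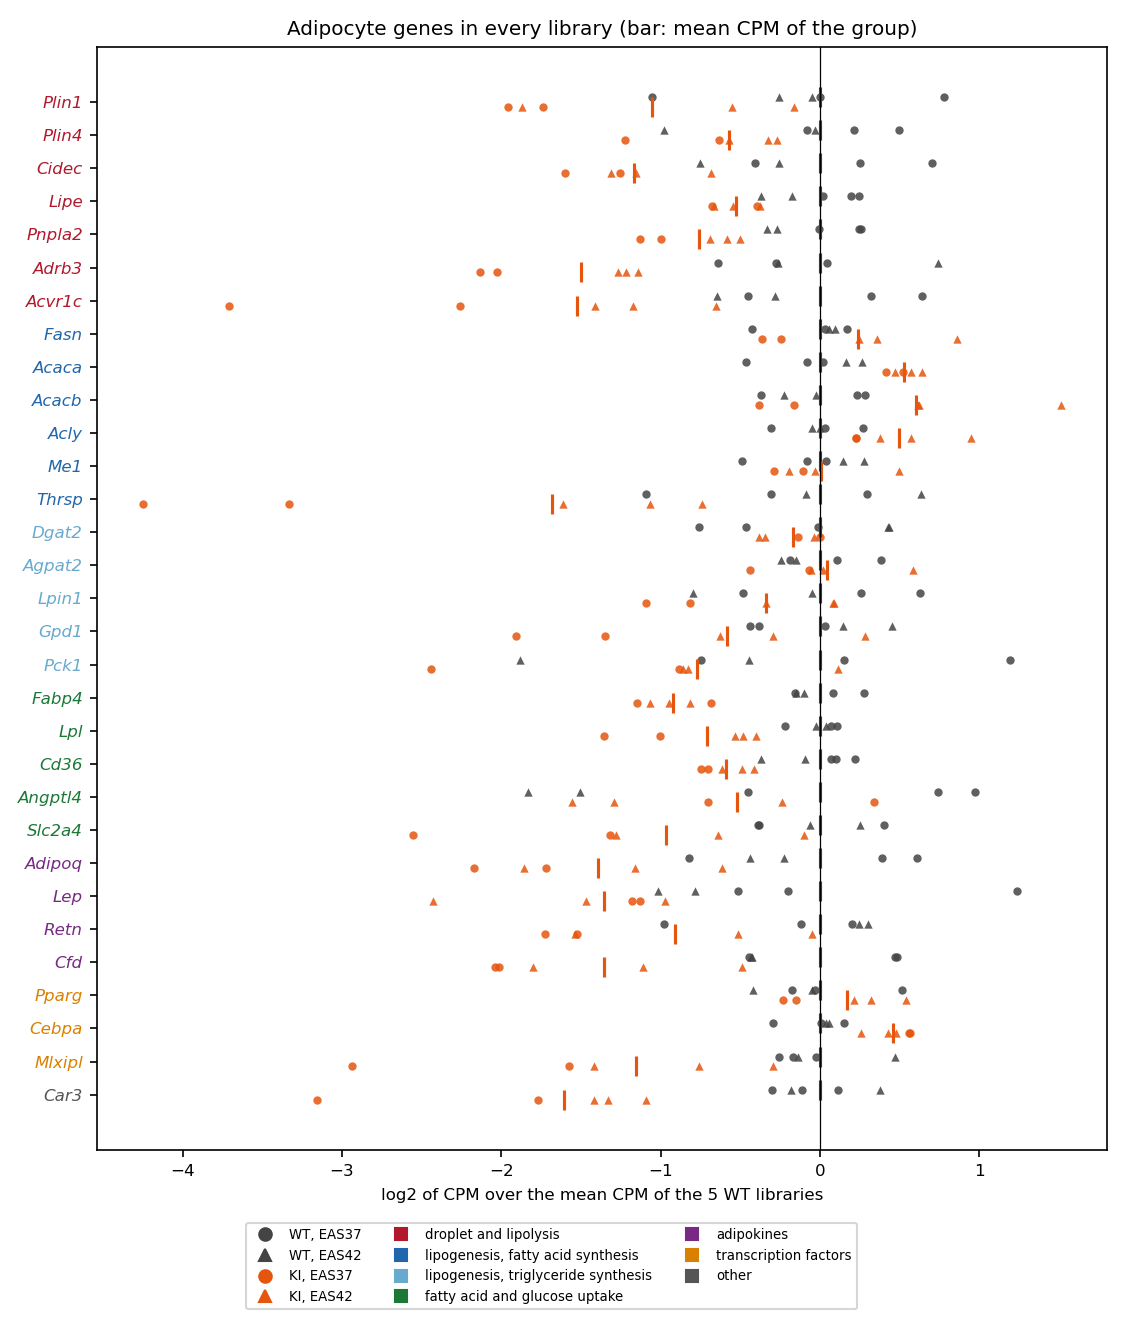
Each row is 1 gene, and each symbol is 1 library, placed on the x axis at the log2 of its CPM over the mean CPM of the 5 WT libraries. Grey symbols are WT, orange symbols are KI, circles are EAS37 and triangles are EAS42, and the bars mark group means. KI symbols of Adrb3, Fabp4, Lpl, Cfd and Car3 all lie left of the WT symbols, those of Acaca and Cebpa all lie right of them, and the KI circles are often the leftmost.

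Promoters were read for the members whose behaviour marks the split. RefSeq's table for GRCm38.p6, the build of the deposited tables, held a start site for 24 of the 32 members, and 7 short motifs were searched on both strands in the 250 bases before each start. The last 100 bases before the start of 6 genes are shown 5′ to 3′ on the gene's own strand, with matches in capitals. Leptin and adiponectin stand for the adipokines that fell, Thrsp and Fasn for synthesis genes with a low and an intermediate value, and Acly and Cebpa for genes that rose. Their places are chr6:29060121-29060220 (Lep, plus strand), chr16:23146436-23146535 (Adipoq, plus), chr7:97417551-97417650 (Thrsp, minus), chr11:120824548-120824647 (Fasn, minus), chr11:100528001-100528100 (Acly, minus) and chr7:35119193-35119292 (Cebpa, plus).
Lep: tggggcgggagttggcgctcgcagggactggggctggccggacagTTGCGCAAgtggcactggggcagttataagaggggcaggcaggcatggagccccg
Adipoq: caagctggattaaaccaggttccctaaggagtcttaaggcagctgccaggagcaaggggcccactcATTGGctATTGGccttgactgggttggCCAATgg
Thrsp: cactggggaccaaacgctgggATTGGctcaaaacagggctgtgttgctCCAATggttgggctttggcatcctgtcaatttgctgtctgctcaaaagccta
Fasn: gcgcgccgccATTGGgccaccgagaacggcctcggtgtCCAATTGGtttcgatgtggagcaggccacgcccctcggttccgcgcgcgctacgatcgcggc
Acly: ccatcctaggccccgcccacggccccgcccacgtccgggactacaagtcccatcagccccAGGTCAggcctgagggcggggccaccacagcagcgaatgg
Cebpa: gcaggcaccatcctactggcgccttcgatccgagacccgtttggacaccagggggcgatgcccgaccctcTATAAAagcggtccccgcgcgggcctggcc

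The capitals mark the C/EBP palindrome TTGCGCAA in Lep, CCAAT boxes in Adipoq, Thrsp and Fasn (CCAAT, or ATTGG where the box is on the other strand), a nuclear receptor core element AGGTCA in Acly and a TATA box TATAAA in Cebpa. In Fasn a CCAAT and an ATTGG overlap. The TTGCGCAA of Lep begins 55 bases before its start and was present in 50 of 27025 genes with a promoter (0.185%), and in no other member of the 24. CCAAT boxes were common, in 37.5% of all genes, in 3 of the 9 members in the table that fell, in 6 of the 11 that did not pass and in 0 of the 3 that rose. The other motifs were AGGTCA in 15.8% of all genes, TATAAA in 14.3%, the carbohydrate-type E-box CACGGG in 9.69%, the E-box CACGTG in 6.86% and the sterol element TCACNCCAC in 1.22%. CACGTG was present in Lipe and Mlxipl, and TCACNCCAC in Mlxipl. These matches describe letters in a window and show no binding.

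Of the 7 droplet and lipolysis genes 5 fell, with a median log2 fold change of -1.06 over all 7. Plin1, the perilipin that coats the adipocyte droplet, stood at 40.0, 19.3, 68.7, 33.5 and 38.7 CPM in WT 1 to 5 and at 10.3, 12.0, 27.2, 35.7 and 10.9 CPM in KI 1 to 5. The 3 lowest libraries, at 10.3 to 12.0 CPM, were all KI, but KI 3 and KI 4 lay among the WT libraries and its value on the log2 scale, -1.06 ± 0.43 (SE; edgeR adjusted p = 0.0881), did not pass. It was called lower in 3 of 24 alternative analyses, by DESeq2 (adjusted p = 0.0275), with the hair level as a covariate and without KI 4. Plin4, a perilipin of nascent droplets, averaged 189 ± 62.8 CPM in WT and 128 ± 30.0 CPM in KI and did not pass either (-0.57 ± 0.26, SE; edgeR adjusted p = 0.115), but was called lower without WT 4 (edgeR adjusted p = 0.0219) and with EAS37 alone. Cidec, which fuses small droplets into large ones, stood at 118, 54.7, 86.6, 43.1 and 60.7 CPM in WT 1 to 5 and at 24.0, 30.5, 29.2, 45.2 and 32.6 CPM in KI 1 to 5. KI 4 alone overlapped the WT range, and Cidec fell by 1.17 on the log2 scale ± 0.27 (SE; edgeR adjusted p = 0.0108).

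Both lipases were lower in every KI library than in any WT library. Pnpla2 (ENSMUSG00000025509, GRCm38 chr7:141455198-141460743, plus strand), adipose triglyceride lipase, which takes the first fatty acid off triglyceride, stood at 144, 146, 121, 101 and 96.9 CPM in WT 1 to 5 and at 61.0, 55.9, 86.0, 75.6 and 81.4 CPM in KI 1 to 5. KI 1 and KI 2 were the lowest (log2 fold change -0.76 ± 0.15, SE; edgeR adjusted p = 0.00557). Lipe, hormone-sensitive lipase, stood at 71.5, 63.3, 74.2, 48.5 and 55.5 CPM in WT 1 to 5 and at 39.1, 47.7, 42.9, 48.1 and 39.4 CPM in KI 1 to 5. The gap between its groups was narrow, from 48.1 CPM in KI 4 to 48.5 CPM in WT 4, and it fell by 0.53 ± 0.12 (log2, SE; edgeR adjusted p = 0.00964).

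A pair of receptors had the lowest log2 fold changes of this group. Adrb3 (ENSMUSG00000031489, GRCm38 chr8:27225776-27250616, minus strand), the adipocyte's beta-3 adrenergic receptor that starts lipolysis, stood at 12.6, 7.83, 10.1, 20.4 and 10.2 CPM in WT 1 to 5 and at 2.78, 2.998, 5.54, 5.25 and 5.07 CPM in KI 1 to 5. Its WT mean was 2.82 times its KI mean, without overlap between the groups (log2 fold change -1.50 ± 0.29, SE; edgeR adjusted p = 0.00456). Acvr1c, the activin-type receptor ALK7 of adipocytes, stood at 8.25, 4.82, 10.3, 5.42 and 4.22 CPM in WT 1 to 5 and at 0.505, 1.38, 2.92, 4.19 and 2.48 CPM in KI 1 to 5. KI 1 and KI 2 were the lowest, WT 5 and KI 4 were almost level at 4.22 and 4.19 CPM, and on the log2 scale Acvr1c fell by 1.52 ± 0.46 (SE; edgeR adjusted p = 0.0311). That call was lost without WT 1 (edgeR adjusted p = 0.0659), KI 2 (0.0705) or WT 3 (0.0718).

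**Figure D2:**
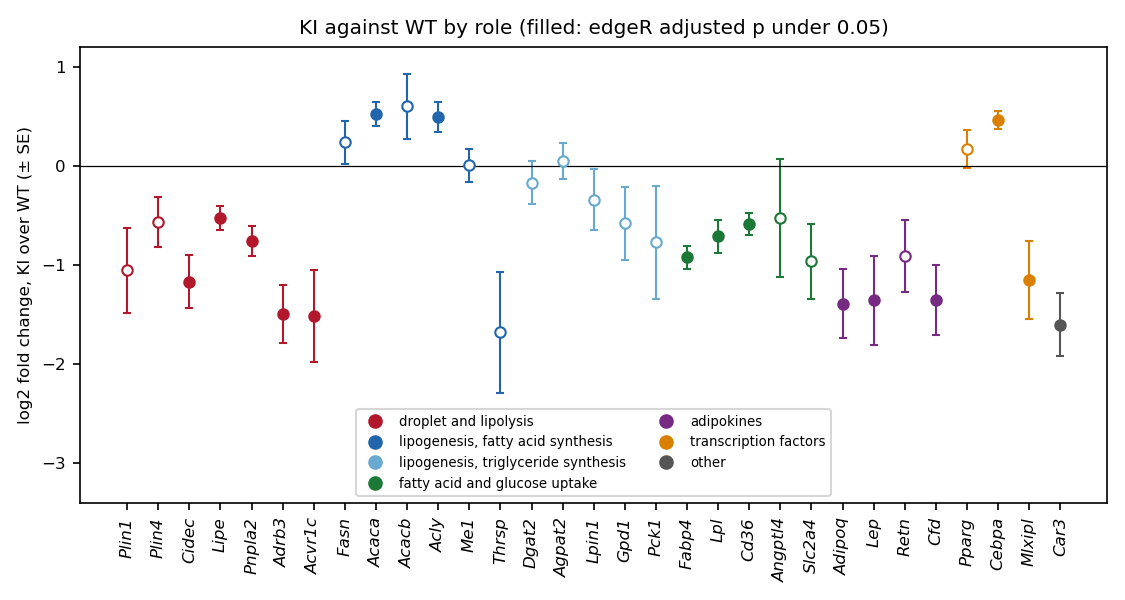
Points show the log2 fold change of each gene, KI over WT (y axis), with bars of 1 SE, ordered and coloured by role along the x axis. Filled points passed edgeR's adjusted p threshold. Droplet, uptake and adipokine genes lie below 0, and 5 of the 6 fatty acid synthesis genes lie at or above 0, from 0.00 for Me1 to 0.60 for Acacb, with Thrsp at -1.68.

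Of the 6 fatty acid synthesis genes 2 rose, and the median log2 fold change was 0.37. Acaca (ENSMUSG00000020532, GRCm38 chr11:84129672-84401651, plus strand), the cytosolic acetyl-CoA carboxylase, which makes the malonyl-CoA that synthesis starts from, stood at 64.2, 49.2, 68.9, 76.3 and 81.5 CPM in WT 1 to 5 and at 97.5, 90.8, 94.3, 106 and 101 CPM in KI 1 to 5. All KI libraries exceeded all WT libraries, and Acaca rose by 0.53 ± 0.12 (SE; edgeR adjusted p = 0.00896) on the log2 scale. Acly, ATP citrate lyase, which supplies cytosolic acetyl-CoA, stood at 256, 172, 217, 205 and 213 CPM in WT 1 to 5 and at 249, 249, 276, 316 and 409.7 CPM in KI 1 to 5. WT 1 overlapped KI 1 and KI 2, the rise was 0.50 ± 0.15 (SE; edgeR adjusted p = 0.0295), and the call was lost without WT 2 (adjusted p = 0.0564), WT 3 (0.0541), WT 4 (0.0588), WT 5 (0.0558) or KI 4 (0.0545). Sebaceous gland genes, which share this pathway, rose in 7 of 15 in the same libraries (46.7%, beside 15.6% of all genes tested). Their median log2 fold change was 0.38, and their part in the rises of Acaca and Acly was not tested.

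The other synthesis enzymes did not pass. Fasn, fatty acid synthase, stood at 365, 241, 332, 346 and 338 CPM in WT 1 to 5 and at 273, 252, 384, 415 and 589 CPM in KI 1 to 5. KI 5 was the highest of the 10 and WT 2 the lowest, KI 1 and KI 2 lay below WT 1, 3, 4 and 5, and on the log2 scale Fasn stood at 0.24 ± 0.22 (SE; edgeR adjusted p = 0.428). Acacb, the mitochondrial carboxylase whose product restrains fatty acid oxidation, stood at 160.5, 167, 106, 117 and 134 CPM in WT 1 to 5 and at 122, 105, 209.9, 210.5 and 391 CPM in KI 1 to 5. Its KI libraries were divided, with KI 5 far above all others, KI 1 within the WT range and KI 2 just below it (0.60 ± 0.33, SE; edgeR adjusted p = 0.182). Me1, the malic enzyme that makes NADPH for synthesis, averaged 200.4 ± 37.8 CPM in WT and 201 ± 47.4 CPM in KI (0.00 ± 0.17, SE; edgeR adjusted p = 0.989).

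Thrsp, Spot 14, a nuclear protein that promotes lipogenesis, was the exception among these genes. It stood at 33.3, 19.3, 50.5, 38.8 and 64.1 CPM in WT 1 to 5 and at 2.17, 4.09, 19.7, 24.6 and 13.5 CPM in KI 1 to 5. KI 1 and KI 2 were the lowest of all libraries, KI 3 and KI 4 exceeded only WT 2, and the WT mean was 3.21 times the KI mean. The change on the log2 scale came to -1.68 ± 0.61 (SE; edgeR adjusted p = 0.0611), and it passed in 10 of 24 alternative analyses, the DESeq2 and limma-voom ones among them.

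None of the 5 triglyceride synthesis genes passed edgeR's test (0 also at an unadjusted p under 0.05, and 0 by DESeq2 or limma-voom), and their median log2 fold change was -0.34. Dgat2, which adds the last fatty acid, averaged 119 ± 41.3 CPM in WT and 105 ± 12.6 CPM in KI (-0.17 ± 0.22, SE; edgeR adjusted p = 0.580). Agpat2, the acyltransferase whose loss causes lipodystrophy, averaged 45.9 ± 8.81 CPM in WT and 47.4 ± 12.8 CPM in KI (0.05 ± 0.18, SE; edgeR adjusted p = 0.867). The phosphatidate phosphatase Lpin1 averaged 52.9 ± 20.4 CPM in WT and 41.8 ± 14.4 CPM in KI (-0.34 ± 0.31, SE; edgeR adjusted p = 0.422). Gpd1 and Pck1, which supply the glycerol backbone, had larger negative values with wide errors. Gpd1 ranged from 105.5 to 195 CPM in WT and from 38.1 to 174 CPM in KI (log2 fold change -0.58 ± 0.37, SE; edgeR adjusted p = 0.251), and Pck1, the PEP carboxykinase, from 6.03 to 50.9 and from 4.09 to 24.1 CPM (-0.77 ± 0.57, SE; edgeR adjusted p = 0.323). Gpd1 was called lower with the title prefix as a block (-0.91, edgeR adjusted p = 0.0188), with the hair level as a covariate (-0.94, 0.0246) and with EAS37 alone (-1.33, 0.0103), and stood at 0.35 (0.519) with the skeletal muscle level as a covariate.

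Of the 5 uptake genes 3 fell, with a median log2 fold change of -0.71. Fabp4 (ENSMUSG00000062515, GRCm38 chr3:10204088-10208576, minus strand), the fatty acid binding protein of the adipocyte cytosol, stood at 603, 447, 528, 449 and 464 CPM in WT 1 to 5 and at 224, 309.6, 258, 283 and 238 CPM in KI 1 to 5. The groups were far apart, with 309.6 CPM as the highest KI and 447 CPM as the lowest WT value, and Fabp4 fell by 0.92 ± 0.12 (log2, SE; edgeR adjusted p = 6.39e-04). It kept its call in each of 24 alternative analyses, the only one of the 13 to do so. Lpl, lipoprotein lipase, which frees fatty acids from circulating triglyceride, stood at 410.2, 328, 400.0, 375 and 392 CPM in WT 1 to 5 and at 190.1, 149, 273, 288 and 264 CPM in KI 1 to 5. KI 1 and KI 2 were again the lowest, no KI library reached the WT range, and Lpl fell by 0.71 on the log2 scale ± 0.17 (SE; edgeR adjusted p = 0.0105).

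Cd36, the fatty acid translocase, stood at 179, 183, 199, 159.9 and 132 CPM in WT 1 to 5 and at 105, 102, 128, 121 and 111 CPM in KI 1 to 5. Its KI values were close together and all below WT 5, the lowest WT library (log2 fold change -0.59 ± 0.11, SE; edgeR adjusted p = 0.00430). Slc2a4, the insulin-responsive glucose transporter GLUT4, stood at 58.6, 101, 58.2, 73.1 and 90.8 CPM in WT 1 to 5 and at 30.6, 13.0, 71.3, 31.5 and 49.1 CPM in KI 1 to 5. KI 3 lay within the WT range and KI 2 at 13.0 CPM was far below it, and Slc2a4 did not pass (-0.97 ± 0.38, SE; edgeR adjusted p = 0.0788). It was called lower in 5 of 24 alternative analyses, by DESeq2 and limma-voom, with the title prefix as a block (edgeR adjusted p = 0.0297) or the hair level, and without KI 3. With the skeletal muscle level as a covariate it stood at 0.15 (edgeR adjusted p = 0.513). Angptl4, a secreted inhibitor of lipoprotein lipase, varied more within groups than between them, from 24.1 to 169 CPM in WT and from 29.2 to 109 CPM in KI (-0.52 ± 0.60, SE; edgeR adjusted p = 0.534).

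Of the 4 adipokines 3 fell, and their median log2 fold change of -1.36 was the lowest of the roles with more than 1 gene. Adipoq encodes adiponectin, a hormone made almost only by adipocytes (ENSMUSG00000022878, GRCm38 chr16:23146536-23158028, plus strand), and stood at 95.3, 41.1, 111, 62.1 and 53.6 CPM in WT 1 to 5 and at 16.1, 22.03, 32.5, 47.5 and 20.1 CPM in KI 1 to 5. KI 4 exceeded WT 2, the other KI libraries lay below all WT libraries, and Adipoq fell by 1.39 ± 0.35 (log2, SE; edgeR adjusted p = 0.0155). Cfd (ENSMUSG00000061780, GRCm38 chr10:79890853-79892655, plus strand), adipsin or complement factor D, stood at 457, 240.0, 452, 243 and 242 CPM in WT 1 to 5 and at 80.8, 79.6, 151, 233 and 93.9 CPM in KI 1 to 5. KI 4 at 233 CPM was just below WT 2 at 240.0 CPM, and the groups did not overlap (log2 fold change -1.36 ± 0.35, SE; edgeR adjusted p = 0.0169).

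Lep, the satiety hormone leptin, stood at 21.2, 17.0, 57.2, 12.0 and 14.1 CPM in WT 1 to 5 and at 11.1, 10.7, 8.76, 12.4 and 4.51 CPM in KI 1 to 5. WT 3 was far above all others, and KI 4 exceeded WT 4. Lep was called, at -1.36 ± 0.45 (SE; edgeR adjusted p = 0.0439) on the log2 scale, but without WT 3 it was -0.76 (edgeR adjusted p = 0.0641), and the call was lost in 16 of 24 alternative analyses, 8 of which left out 1 library (KI 1, 2, 3, 4 or 5, or WT 1, 2 or 3; adjusted p from 0.0509 to 0.0781). Retn, resistin, stood at 25.1, 13.8, 31.2, 33.5 and 32.2 CPM in WT 1 to 5 and at 8.23, 9.42, 19.1, 26.2 and 9.38 CPM in KI 1 to 5. KI 3 and KI 4 lay above WT 2, KI 1, KI 2 and KI 5 lay below all WT libraries, and Retn did not pass (-0.91 ± 0.36, SE; edgeR adjusted p = 0.0818). It was called lower in 7 of 24 alternative analyses: by DESeq2 and limma-voom, with the title prefix as a block (edgeR adjusted p = 0.0187) or the hair level (0.00685), with EAS37 alone, and without WT 2 or KI 4.

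Of the 3 transcription factors 1 rose, 1 fell and 1 did not pass. Pparg, the master regulator of the adipocyte, averaged 24.5 ± 6.27 CPM in WT and 27.5 ± 6.11 CPM in KI and did not pass (log2 fold change 0.17 ± 0.19, SE; edgeR adjusted p = 0.528). It was called higher with the EAS42 libraries fitted alone (0.58, edgeR adjusted p = 0.0480). The EAS42 effect in the fit of all 10 libraries did not pass (0.59, edgeR adjusted p = 0.0809). Cebpa (ENSMUSG00000034957, GRCm38 chr7:35119293-35121928, plus strand), its partner in fat cell differentiation, stood at 184, 149, 203, 188 and 190.1 CPM in WT 1 to 5 and at 269, 271, 219, 254 and 245 CPM in KI 1 to 5. Each KI library exceeded each WT library, and Cebpa rose by 0.46 ± 0.09 (SE; edgeR adjusted p = 0.00571) on the log2 scale. Bulk skin does not show which cells carried the rise of Cebpa. Mlxipl, the glucose-sensing factor ChREBP that drives lipogenic genes, stood at 33.2, 39.0, 35.3, 36.1 and 55.1 CPM in WT 1 to 5 and at 13.3, 5.19, 32.4, 14.9 and 23.5 CPM in KI 1 to 5. KI 3 at 32.4 CPM fell just short of WT 1 at 33.2 CPM, and the fall of 1.15 ± 0.39 (log2, SE; edgeR adjusted p = 0.0484) was close to the threshold. It was lost in 12 of 24 alternative analyses, among them those without KI 1 (adjusted p = 0.112), WT 1 (0.0692), WT 2 (0.0762), WT 3 (0.0738), WT 4 (0.0760), WT 5 (0.103), KI 4 (0.103) or KI 5 (0.0545).

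Car3 (ENSMUSG00000027559, GRCm38 chr3:14863512-14872523, plus strand), a carbonic anhydrase and an abundant cytosolic protein of fat, stood at 958, 1091, 1277, 1038 and 1530 CPM in WT 1 to 5 and at 346, 132, 553, 468 and 440.5 CPM in KI 1 to 5. The highest KI library had 553 CPM and the lowest WT library 958 CPM, and Car3 fell by 1.604 ± 0.32 (log2, SE; edgeR adjusted p = 0.00562). With the skeletal muscle level as a covariate it stood at -0.73 and was not called (edgeR adjusted p = 0.185). Ucp1, the uncoupling protein of thermogenic fat, held 21 counts over the 5 WT and 22 over the 5 KI libraries and was not tested.

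On the scale of deposited TPM, which is per length, the order of members in WT was led by Car3 at 1091 ± 204, Fabp4 at 828 ± 138 and Cfd at 610 ± 234 (SD, n = 5). Car3 and Fabp4 differed by more than either SD, and Fabp4 and Cfd by less than the SD of Cfd. Fasn (148 ± 12.9), Lpl (133 ± 14.0) and Cebpa (112 ± 14.5) followed, then Pnpla2 at 94.3, Cd36 at 91.7, Adipoq at 89.1 and Me1 at 88.5, which were closer together than their SDs of 14.8 to 37.8. The least abundant tested members were Lep at 10.9, Acaca at 10.8, Adrb3 at 7.61 and Acvr1c at 1.02, and Ucp1 stood at 0.164. In KI the 3 most abundant were Fabp4 at 414 ± 68.2, Car3 at 344 ± 154 and Cfd at 227 ± 127, which overlapped within their SDs, and Fasn followed at 171 ± 69.0.

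Within the title prefixes more members passed in EAS37 than in EAS42. In EAS37 18 of 31 members were lower (58.1%, beside 18.4% of all genes tested) and 2 higher (6.45%, beside 17.4%; 35.8% of all genes in either direction), and the median was -1.16 (log2). Within EAS42 5 were lower (16.1%, beside 7.13% of all genes) and 2 higher (6.45%, beside 7.94%), and the median was -0.47. The median over all genes tested was -0.03 in EAS37 and 0.01 in EAS42. The counts rest on few libraries: that of EAS37 was 11 without KI 2, and that of EAS42 was 0 without WT 4, 1 without WT 5, 2 without KI 3, KI 4 or KI 5 and 3 without WT 1. The 2 higher in EAS42 were 0 without KI 1, KI 2, WT 4, WT 5 or KI 4, 1 without WT 3 or KI 5, and 4 without WT 2.

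The genes lower in EAS42 were Adrb3 (-1.53 ± 0.28), Car3 (-1.40 ± 0.36), Fabp4 (-0.81 ± 0.15), Dgat2 (-0.67 ± 0.19) and Lpl (-0.48 ± 0.13; log2, SE), and edgeR adjusted p-values ran from 0.00801 to 0.0412. Of these Adrb3, Car3, Fabp4 and Lpl were lower in EAS37 too, at -1.81, -2.22, -0.98 and -1.16, and Dgat2 stood at 0.31 there (edgeR adjusted p = 0.229). The genes higher in EAS42 were Acacb (1.11 ± 0.31) and Acly (0.68 ± 0.19), at 0.0494 and 0.0392. With the EAS42 libraries fitted alone Acly passed (0.67, edgeR adjusted p = 0.0397) and Acacb did not. In EAS37 the higher genes were Acaca (0.63 ± 0.13) and Cebpa (0.60 ± 0.12), which stood at 0.35 and 0.34 in EAS42 without passing there.

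A difference between the effects in both prefixes was called for 1 member, beside 0.866% of all genes tested in either direction (0.387% with a larger and 0.479% with a smaller value in EAS42). Pnpla2 stood at -1.23 ± 0.11 in EAS37 and at -0.29 ± 0.10 in EAS42 (log2, SE; edgeR adjusted p = 0.0809), a difference of 0.94 (edgeR adjusted p = 0.0341). In CPM its EAS37 means were 137 in WT and 58.4 in KI, and its EAS42 means 99.1 and 81.0. The number of members with a larger value in EAS42 was 0 without KI 1, WT 1, KI 2, WT 4, KI 3, WT 5 or KI 5, and 3 without WT 2. At an unadjusted p under 0.05 edgeR gave 14 members with a larger and 1 with a smaller value in EAS42. The share of all genes at that unadjusted threshold was not counted. The median difference was 0.91 over the members tested and 0.06 over all genes tested. The prefixes were not shown to differ for Acvr1c (-3.03 and -0.59; difference 2.44, adjusted p = 0.0878), Cd36 (difference 0.58, 0.0889) or Lpl (0.68, 0.0968).

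**Figure D3:**
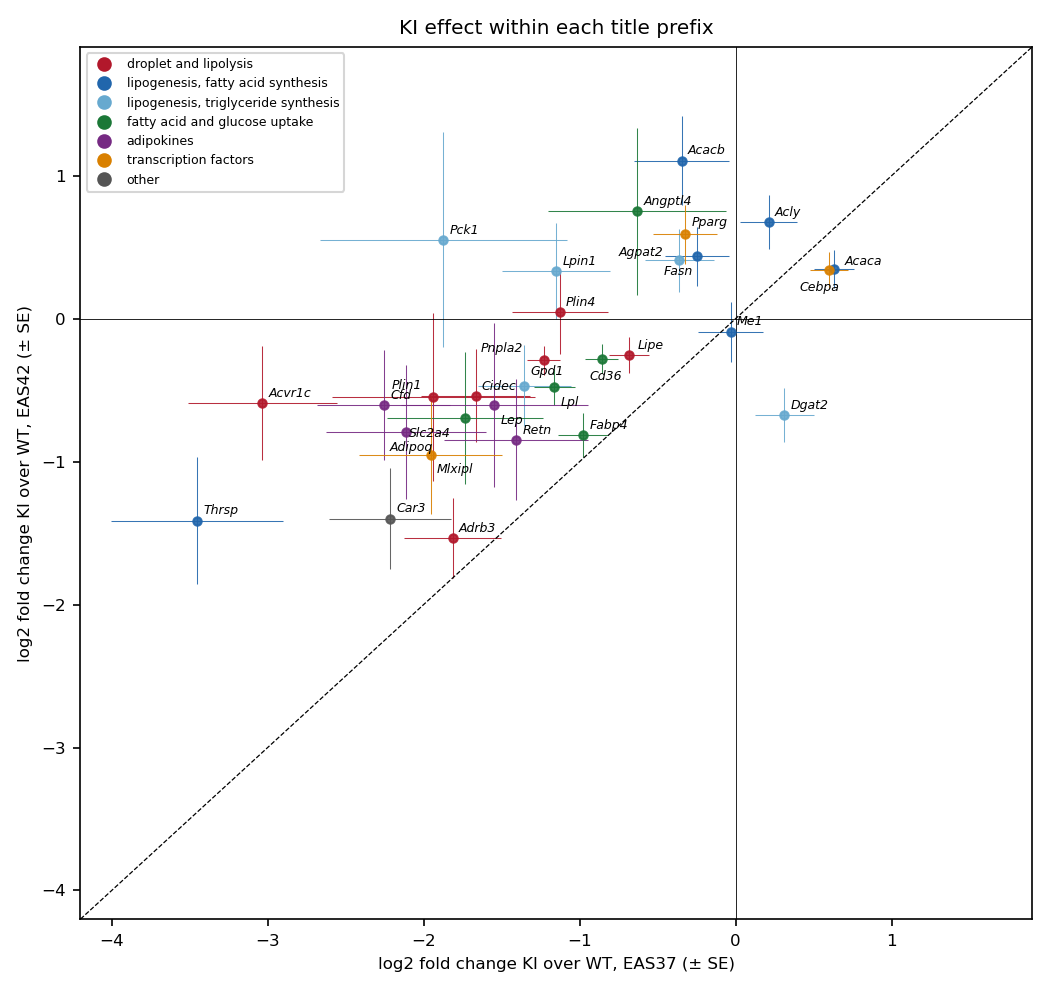
Each point is 1 gene, with the log2 fold change of KI over WT in EAS37 on the x axis and in EAS42 on the y axis, bars of 1 SE and colours by role. The dashed line marks equal values. Most points lie above the line and left of 0, Dgat2 lies right of and below 0, and Fabp4 and Adrb3 lie close to the line.

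The lipolytic and lipogenic members were also placed on a scale within libraries, as counts of each gene relative to Adipoq. This scale raises all log2 fold changes by roughly the fall of Adipoq, as for Acaca (0.53 to 1.96) and Cfd (-1.36 to -0.02). It is therefore no second measurement of the contrast between roles. Because Adipoq itself fell, 77.3% of all genes tested were higher relative to it and 0.144% lower (77.5% in either direction), with a median log2 change of 1.40. Of the 30 other members 12 were higher (40.0%), and their median was 0.68. The 12 held 5 of 6 fatty acid synthesis genes, 3 of 5 triglyceride synthesis genes (Dgat2, Agpat2 and Lpin1), Pparg and Cebpa, Angptl4, and 1 of 7 droplet and lipolysis genes (Lipe, 0.90 ± 0.43; edgeR adjusted p = 0.0466). EdgeR called 0 members lower relative to Adipoq (0 at an unadjusted p under 0.05; no other tool was run), and 1, Thrsp, with the title prefix as a block (-0.997, edgeR adjusted p = 0.0444).

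Cfd kept a near constant proportion to Adipoq. There were 3.91 to 5.84 Cfd counts per Adipoq count in WT and 3.61 to 5.00 in KI (log2 change -0.02 ± 0.43, SE; edgeR adjusted p = 0.970). Plin1 was at 0.420 to 0.722 counts per Adipoq count in WT and 0.544 to 0.838 in KI (0.26 ± 0.42, adjusted p = 0.565). Smaller relative changes than that of Lipe (0.90) were not called in any member at SEs of this size. The ratios of 7 of 30 members were higher in every KI library than in every WT library, namely Fasn, Acaca, Acacb, Acly, Agpat2, Pparg and Cebpa. The share of all genes tested that separated in this way was not counted. Of all genes tested 77.3% were called higher relative to Adipoq, so the 7 are not read as particular to their roles. For Acaca the ratio lay between 0.621 and 1.52 in WT and between 2.24 and 6.03 in KI (log2 change 1.96 ± 0.43, adjusted p = 7.93e-05). For Cebpa it lay between 1.83 and 3.63 and between 5.36 and 16.7 (1.93 ± 0.45, adjusted p = 1.55e-04), and for Fasn between 2.99 and 6.3 and between 8.75 and 29.3 (1.67 ± 0.45, adjusted p = 8.60e-04). These values lie not far above the median of 1.40 over all genes tested.

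**Figure D4:**
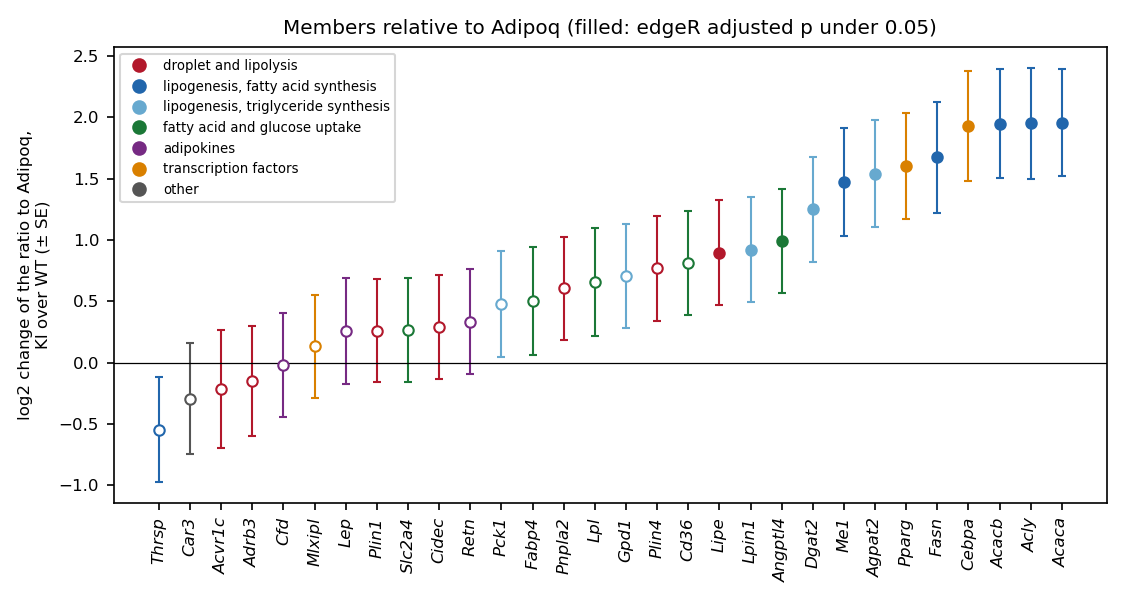
Members are ordered along the x axis by the log2 change of their ratio to Adipoq, KI over WT (y axis, bars of 1 SE), and filled points passed edgeR's adjusted p threshold. Adipokines and most droplet genes lie within 1 unit of 0, and Cebpa, Acacb, Acly and Acaca lie at 1.93 to 1.96, above the 1.40 median of all genes tested.

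Of 71 other adipocyte genes tested 21 fell (29.6%, beside 15.3% of all genes) and 13 rose (18.3%, beside 15.6%), with a median log2 fold change of -0.20. Secreted factors and receptors fell in 11 of 19 (3 rose), led by the natriuretic peptide clearance receptor Npr3 (32.1 ± 9.31 CPM in WT, 10.3 ± 1.94 in KI), the synuclein Sncg (18.8 ± 6.10 and 8.10 ± 1.08) and the amine oxidase Aoc3 (56.2 ± 15.9 and 20.7 ± 5.99; SD, n = 5). Lipogenesis genes rose in 3 of 12, namely Dgat1, which forms triglyceride like Dgat2 (39.0 ± 4.41 to 62.4 ± 11.5 CPM), the citrate carrier Slc25a1 and the acetoacetyl-CoA synthetase Aacs.

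Droplet genes outside the 32 were divided. Aqp7, the channel through which glycerol leaves the adipocyte, fell from 7.39 ± 1.88 to 2.41 ± 0.352 CPM, as did Cavin1, while the lipase cofactor Abhd5 (66.7 ± 4.68 to 99.3 ± 12.9 CPM) and the monoglyceride lipase Mgll (293 ± 45.1 to 607 ± 207 CPM) rose. Among 13 uptake and insulin response genes 3 fell and 2 rose. Gpihbp1, which holds lipoprotein lipase on the capillary wall, fell from 20.96 ± 3.08 to 7.89 ± 1.91 CPM, and Slc27a4 and Fabp5, fatty acid carriers that keratinocytes also express, rose by 1.19 ± 0.15 and 1.58 ± 0.21 (log2, SE; edgeR adjusted p = 6.25e-04 and 7.54e-04). Of 14 transcription factors 5 fell, among them Ebf1, and 3 rose, among them Cebpb (70.5 ± 8.91 to 160 ± 27.6 CPM) and Tle3.

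Lists of other cell types were read beside these results. Of all genes tested 15.3% fell and 15.6% rose. The shares of skeletal muscle genes lower (20%), macrophage genes lower (10%) and thermogenic genes higher (22.2%) were near these. Those shares are not read as results about a cell type. Blood endothelium fell in 9 of 12 genes (median -0.64), fibroblast and matrix in 5 of 12 (median -0.55), adipocyte progenitor in 5 of 11 with 1 higher (median -0.86) and skeletal muscle in 4 of 20 (median -1.28). For skeletal muscle 14 of the 20 were lower at an unadjusted p under 0.05, 13 by DESeq2 and 12 by limma-voom. Sebaceous gland genes, a list that holds Pparg too, rose in 7 of 15, led by Krt79, a keratin of the gland's duct (560 ± 170 to 3971 ± 1230 CPM). The other 8 did not pass, 3 of them with negative values, and the median of the list was 0.38. In the thermogenic list 2 of 9 genes rose and 4 fell, and the leading gene Elovl3, from 36.7 ± 6.37 to 229 ± 44.9 CPM, is a fatty acid elongase that sebaceous glands make as well. Of macrophage genes 1 of 10 fell and 0 rose, and their median was above 0 (0.39). Hair shaft genes gave 0 calls of 17 in edgeR (1 at an unadjusted p under 0.05, 1 by DESeq2, 0 by limma-voom). Their level, the mean log2 CPM of the list, separated the prefixes instead, at 3.15 to 7.67 in EAS37 and -0.47 to 0.84 in EAS42.

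The part that sebaceous, endothelial, matrix or hair signal has in the members' values was not tested. A fit with the hair level as a covariate kept 12 of the 13 falls and all 3 rises. Because the hair level separated the title prefixes, that fit cannot tell hair signal from the prefix. The muscle level lay at 9.55 to 10.27 in WT and 6.50 to 9.61 in KI. With it as a covariate all 16 called members kept their sign, but 1 of the 13 falls (Fabp4, edgeR adjusted p = 0.00417) and 0 of the 3 rises still passed, with adjusted p-values of 0.0638 to 0.957 for the other falls. Calls were lost over all genes too. Of 17321 genes tested 111 were called lower and 256 higher with the muscle level, and 2652 and 2699 without it. Because the muscle level was lower in most KI libraries, that fit cannot fully tell muscle signal from genotype. With the muscle level the 13 falls ranged from -1.94 to -0.02. Mlxipl moved from -1.15 to -0.02, Car3 from -1.60 to -0.73 and Lpl from -0.71 to -0.35, while Adipoq stood at -1.45 and Cfd at -1.27 (log2 fold changes).

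**Figure D5:**
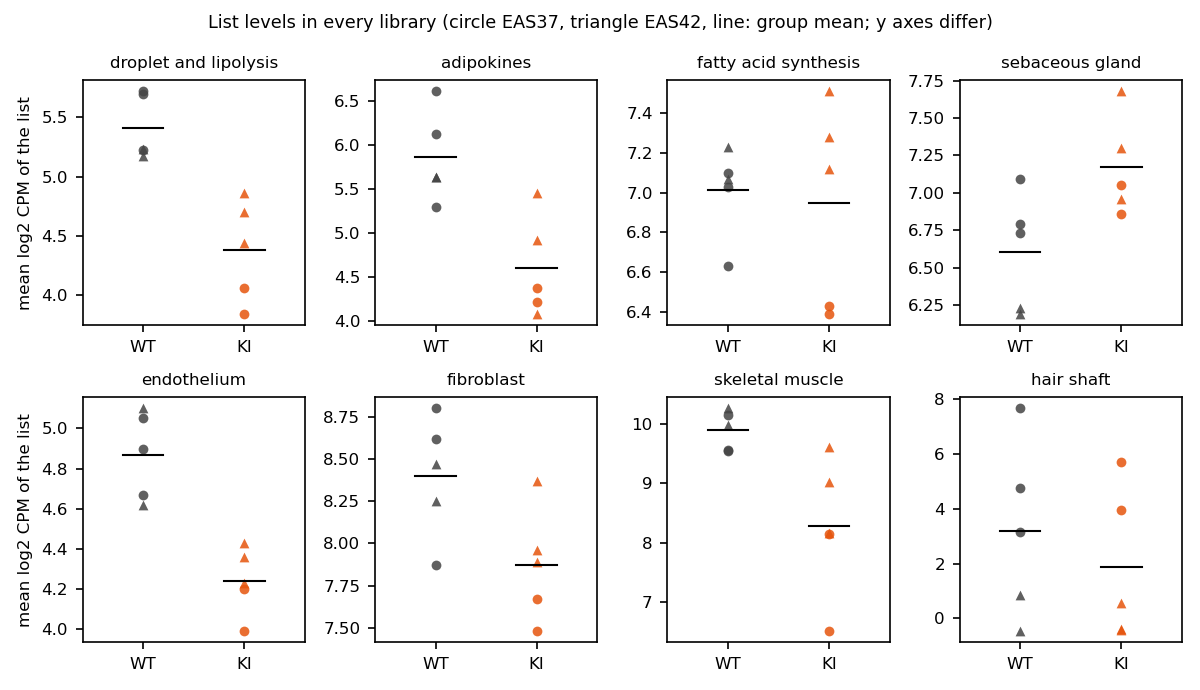
Each panel shows the mean log2 CPM of 1 list (y axis, scales differ between panels) in the 5 WT (grey) and 5 KI (orange) libraries, with circles for EAS37, triangles for EAS42 and lines at group means. Droplet levels span 5.17 to 5.72 in WT and 3.84 to 4.86 in KI, fatty acid synthesis levels overlap between the groups, and hair shaft levels follow the prefix.

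Annotated genes overlap 13 of the 32 members, in part on the opposite strand. Those on the opposite strand are protein-coding genes at Plin4, Acaca and Agpat2 and pseudogenes at Acvr1c and Acacb. Antisense genes lie at Lipe, Adrb3, Acvr1c, Me1, Gpd1, Pparg, Cebpa and Mlxipl. The kit keeps strand, but the strand setting of the counting is not given in the sources used here, so the values of these 13 are uncertain to that extent.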

How the data were processed

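RNA of mouse skin was harvested with trizol and sequenced after a stranded mRNA kit, per the labels' protocols. GRCm38 is the build in the submitters' processing notes, which also list DESeq2 1.14.1, featureCounts, Picard 2.8.1, STAR 2.5.2b and FastQC in no stated role. Per the file headers the deposited tables are in RSEM's format. Its version, the strand setting and the release of the annotation are not given in the sources. Expected counts deposited by the authors (10.4% to 12.2% fractional) were rounded and tested. TPM values deposited by the authors, scaled per length, served to compare levels between genes and in an alternative. The authors' FPKM values stayed unused, and deposited effective lengths (in bases) entered an alternative. Names and coordinates came from GENCODE M21, which matched 55227 of 55487 identifiers.

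Genes were kept by filterByExpr (minimum count 10, minimum total 15), which removed 0.127% of counts. KI and WT were set against each other with edgeR 4.0.16's quasi-likelihood test (R 4.3.3, robust, TMM, CPM on TMM library sizes) with Benjamini-Hochberg adjustment over all genes and a threshold of 0.05. Effects within each title prefix and their difference came from a model with an interaction. For values relative to Adipoq, its count replaced the library size. Levels of lists are means of log2 CPM (prior count 2) over their tested genes. Replicates were numbered in accession order, which pairs nothing. The lowest chi-square per gene between a pair of libraries was 29.5, far above sampling noise. The test was tried on simulated counts.

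The members, the other lists and the tests were chosen with earlier results of these data known. All members are accounted for, up to 3 genes with the smallest p are named per other list, and Hamp and Cavin1 are named beside them. Of the list names, Agpat9, Wisp2 and Krt85 were not matched. Alternatives were other normalizations and filters, effective length offsets, a non-robust fit, DESeq2 1.42.0, limma 3.58.1 (voom, and log2(TPM + 0.1) for genes with a mean TPM of at least 0.5), the prefix as a block, muscle or hair levels as covariates, each prefix alone, each library left out and Plin1 in place of Adipoq.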

Additional observations from a re-analysis of the deposited data

Results flagged for a closer look

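Single libraries stood apart from the other 4 of their group in 4 of 64 groups of 5 examined, where chance flags about 1 in 20 groups. Fasn was at 241 CPM in WT 2, with the nearest WT library at 332 CPM. Me1 was at 283 CPM in KI 5, with the nearest KI library at 196 CPM. Lep was at 57.2 CPM in WT 3, with the nearest WT library at 21.2 CPM. Mlxipl was at 55.1 CPM in WT 5, with the nearest WT library at 39.1 CPM. For Pnpla2 the KI effect differed between the title prefixes by 0.94 on the log2 scale (EAS42 minus EAS37; edgeR adjusted p = 0.0341), and it was less negative in EAS42.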

How the results depend on the processing

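The 13 members that fell in KI all kept their call with DESeq2 size factors, upper quartile normalization, a minimum count of 50, a non-robust fit and DESeq2. With no filter 10 of them kept it, and with effective length offsets, limma-voom, log2 TPM, the prefix as a block or the hair level 12 did. With the skeletal muscle level as a covariate 1 member was called lower and 0 higher, and 111 genes of all tested lower and 256 higher. With EAS42 alone 6 members were called lower, and 1296 genes lower and 1192 higher. With log2 TPM 1728 genes were called higher.

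Leaving out each library in turn gave 10 to 14 members lower and 2 to 3 higher. Within EAS37 it gave 11 to 18 members and 1677 to 3065 genes lower and 1966 to 3279 genes higher. Within EAS42 it gave 0 to 5 members lower and 0 to 4 higher, and 156 to 1577 genes lower and 260 to 1703 higher. The difference of both effects gave 0 to 3 members with a larger and 0 to 1 with a smaller value in EAS42, and 1 to 155 and 0 to 149 genes. Relative to Adipoq 9 to 15 members were higher, and 19 to 60 genes lower. Plin1 as the reference gave 8223 genes higher, and the prefix as a block gave 1 member and 39 genes lower.

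A sign changed 39 times over 16 members, at edgeR or limma adjusted p-values of 0.228 to 0.998. Me1 turned to -0.0028 (upper quartile), -0.0033 (no filter), -0.0005 (minimum count 50), -0.0092 (effective lengths), -0.0899 (log2 TPM), -0.0616 (prefix block), -0.0754 (hair level), -0.0097 (EAS37 alone) and -0.101 (EAS42 alone), and ranged from -0.138 to 0.0813 with a library left out. Agpat2 turned to -0.0675 (log2 TPM), -0.0052 (hair level) and -0.338 (EAS37 alone), and ranged from -0.111 to 0.159 with a library left out. With EAS37 alone Acacb was at -0.324, Dgat2 at 0.334, Fasn at -0.227 and Pparg at -0.299. With EAS42 alone Angptl4 was at 0.741, Lpin1 at 0.324, Pck1 at 0.540 and Plin4 at 0.0385. Angptl4 was at 0.0507 with the prefix block. With the muscle level Gpd1 was at 0.347, Lpin1 at 0.264 and Slc2a4 at 0.151. Relative to Adipoq and with a library left out, Adrb3 ranged from -0.342 to 0.157, Cfd from -0.0723 to 0.0802, Lep from -0.0527 to 0.497 and Mlxipl from -0.124 to 0.366. With Plin1 as the reference Mlxipl was at -0.101 and Slc2a4 at -0.0061. The cause was not tested for any of these, apart from the fewer libraries in fits that leave some out. No paired analysis was possible because replicate numbers only follow accession order. Depth limits Ucp1, at 21 and 22 counts per group.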
